A study of Mus musculus with 6 samples.

Results

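The clustered protocadherins are cell-surface adhesion proteins encoded side by side in 3 gene arrays on mouse chromosome 18. They were taken from the count files by symbol alone (Pcdha, Pcdhac, Pcdhb, Pcdhga, Pcdhgb and Pcdhgc, each followed by a number), which gave 57 members among 32531 gene features. They comprise 12 alpha, 21 beta, 12 gamma A and 7 gamma B members, together with 5 C-type members, of which Pcdhac1 and Pcdhac2 end the alpha array and Pcdhgc3, Pcdhgc4 and Pcdhgc5 end the gamma array. Pcdha6-g and Pcdha7-g, which fall outside that symbol pattern, had at most 5 reads in any library and were not counted as members.

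The RNA came from the hypothalamus of adult mice of the Lhx5-TRAP DT154 line, which carry an Lhx5-EGFP/Rpl10a transgene. In such a line the ribosomal protein L10a is tagged with EGFP in cells where the Lhx5 driver is active, so that an anti-EGFP antibody can pull down their polysomes. The 3 immunopurified (IP) and 3 unbound libraries all came from untreated control animals of this 1 line, without another genotype or treatment. The sample-type label of the second group reads unbound while its titles read Input, and it is called unbound here. The labels do not say which cells the transgene marks in the adult, whether animals were pooled, or whether replicates were separate animals, so p-values measure only the spread between these samples.

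Most neurons switch on a few alpha, beta and gamma isoforms by stochastic promoter choice, in which CTCF and cohesin bring an enhancer to the chosen promoter, while C-type isoforms are less subject to that choice. The proteins bind like isoforms on facing membranes, and the set on a cell lets its own branches recognise and avoid each other. In the alpha and gamma arrays each member has its own large first exon, coding for the extracellular and transmembrane parts, spliced to constant exons shared by the array, whereas beta members are single-exon genes.

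In the mm10 gene models (GENCODE M21), the alpha array spanned bases 36930285 to 37187657 of chromosome 18, the beta array 37264938 to 37524479 and the gamma array 37661793 to 37841873, all on the plus strand. Shared exons made up 2860 bases of each alpha model and 2116 to 2119 bases of each gamma model, against an own exon of 2346 to 3028 bases over both arrays. A read from a shared exon fits every member of its array, and how the counting treated such reads is not given in the sources used here. Pcdha8 was given 2 reads in an IP library in which its array neighbour Pcdhac2 was given 819, so shared reads had not been added to every alpha member. Own exons also resembled each other in places. The share of an own exon's 50-base windows found again in another member was 10.1% to 23.4% for alpha, 2.67% to 17.9% for gamma B, 0% to 11.99% for beta and 0% to 4.25% for gamma A members, and 0% for each C-type member. By this measure alone, levels of alpha and gamma B members are the least certain as subfamilies. Their median shares were 14.9% and 11.6%, against 3.35% for beta and 0.29% for gamma A members, though the gamma B and beta ranges overlapped.

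Gene counts per library ranged from 32471045 to 46293837 (IP) and from 32926146 to 40768577 (unbound), with 8389 to 12177 of them on the members. Lhx5 checked the labels, at 61.7 ± 7.59 CPM (read counts scaled to library size, here after TMM scaling) in IP against 3.39 ± 2.51 in unbound RNA (mean ± SD, n = 3). In IP RNA, 12 of 20 pan-neuronal markers rose and 1 fell, while 11 of 12 astrocyte, 12 of 12 oligodendrocyte, 7 of 8 oligodendrocyte precursor, 10 of 11 microglial, 7 of 10 vascular and 7 of 7 ependymal markers tested fell. Of 6 thalamic markers tested 4 fell and 1 rose. Unbound replicate 3 stood apart. Its summed choroid plexus markers were 304 CPM against 2612 and 2844 in the other two unbound libraries, and its summed striatal and cortical markers 88.9 CPM against 1401 and 1309. Ttr and Enpp2 made up most of the choroid plexus sum. Of that list Otx2 was highest in unbound replicate 3 (32.7 CPM against 11.8 and 14.0), while the rest were lowest there among unbound libraries. It was the highest unbound library for oligodendrocyte (7194 CPM against 3945 and 3769), thalamic (1089 against 701 and 656) and vascular marker sums (72.9 against 40.9 and 32.0). In IP libraries the choroid plexus sum was 128 to 431 CPM, and 3 of 7 of its markers tested fell. The striatal and cortical sum was 100.6 to 238 CPM there, and 1 of 9 of its markers fell.

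Of the 57 members, 53 passed the filter on low counts and 2 of them, both C-type gamma members, differed between IP and unbound RNA. Pcdhgc4 was higher and Pcdhgc3 lower in IP RNA, at an adjusted p under 0.05 in edgeR's quasi-likelihood test over all 16991 genes tested. Across all genes 21.1% were called higher and 23.2% lower. For genes with a mean of 1 to 10 CPM, the range that holds 44 of the tested members, these shares were 9.55% and 31.5%, and 0 of those 44 members was called (5 of all 53 had an unadjusted p under 0.05). The members' median log2 difference (IP minus unbound) was 0.01, with 27 positive and 26 negative, beside a median of -0.01 for all genes. The other 4 members, Pcdha4, Pcdha6, Pcdha7 and Pcdhb1, did not pass the filter and were not tested. These calls do not use the replicate numbers. A fit that takes equal replicate numbers as pairs (replicate block) also called Pcdhb2 higher and Pcdhb16 lower. That fit called 3952 of 16991 genes higher and 4017 lower. In bulk RNA, fewer cells of a type and less RNA per cell cannot be told apart.

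**Figure D1:**
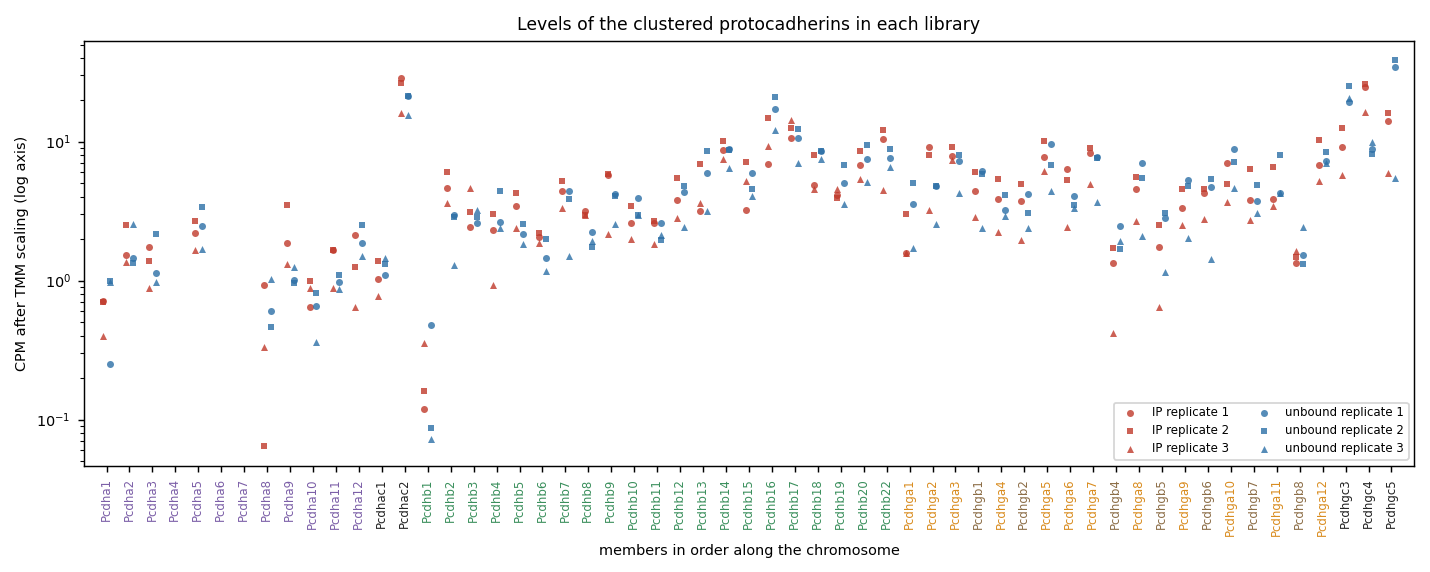
CPM after TMM scaling (log axis) of each member in each of the 6 libraries, in order along the chromosome, with label colours for alpha (purple), beta (green), gamma A (orange), gamma B (brown) and C-type (black) members. Points at 0 cannot be drawn, so Pcdha4, Pcdha6 and Pcdha7 are empty. Pcdhac2, Pcdhgc3, Pcdhgc4 and Pcdhgc5 include the highest points, and Pcdhgc4 and Pcdhgc3 have IP and unbound points that do not overlap.

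Pcdhgc4, an isoform needed for the survival of many inhibitory interneurons and dependent on other isoforms to reach the cell surface, has its own exon at bases 37815079 to 37817983. Its level was 24.9, 26.2 and 16.4 CPM in IP replicates 1 to 3 and 8.79, 8.11 and 9.88 CPM in unbound replicates 1 to 3. All IP values lay above all unbound values. The log2 difference was 1.33 ± 0.21 (SE), a 2.52-fold higher level in IP RNA, with an adjusted p of 0.00152 (edgeR quasi-likelihood test, Benjamini-Hochberg). The call was kept in each of 18 alternative fits, where the difference ranged from 0.79 to 1.58 on the log2 scale.

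Pcdhgc3, which is known to bind Axin1 and to promote dendrite branching, has its own exon at bases 37806410 to 37808977. It stood at 9.22, 12.5 and 5.80 CPM in the IP libraries and at 19.4, 25.0 and 20.6 CPM in the unbound libraries. The groups did not overlap and the IP libraries were the low ones. The log2 difference was -1.24 ± 0.27, a 2.37-fold lower level in IP RNA, with an adjusted p of 0.00614 by the same edgeR test. This call was also kept in all 18 alternative fits, between -1.79 and -0.98. Pcdhgc3 moved in the same direction as the glial marker lists above, whose median log2 differences were -3.04 for astrocyte, -3.48 for oligodendrocyte and -3.14 for microglial markers, and their part in its difference was not tested. An antisense gene model, BC037039, covers 58.9% of the Pcdhgc3 own exon and is not a feature of the files. Without the strand setting, reads of the 2 cannot be told apart.

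Pcdhgc5, a binding partner of GABA-A receptors, has its own exon at bases 37819513 to 37822134. It was measured at 14.1, 16.0 and 5.95 CPM in the IP libraries and at 34.2, 38.7 and 5.47 CPM in the unbound libraries. Unbound replicates 1 and 2 were the high ones, and unbound replicate 3 was the lowest of all 6, so the groups overlapped. The log2 difference of -1.12 ± 0.74 did not pass (adjusted p = 0.261, edgeR quasi-likelihood test). Without unbound replicate 3 it was -1.61, with an adjusted p of 0.00298 in the same test, and without replicate 3 of both groups -1.29. Pcdhgc5 and the choroid plexus and striatal and cortical marker sums were low in the same unbound library, and the part of these markers in its level was not tested. Pcdhgc3 and Pcdhgc4 did not share this pattern. In unbound replicate 3 they lay within or above the values of the other two unbound libraries, and without that library their differences were -1.29 and 1.40.

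**Figure D2:**
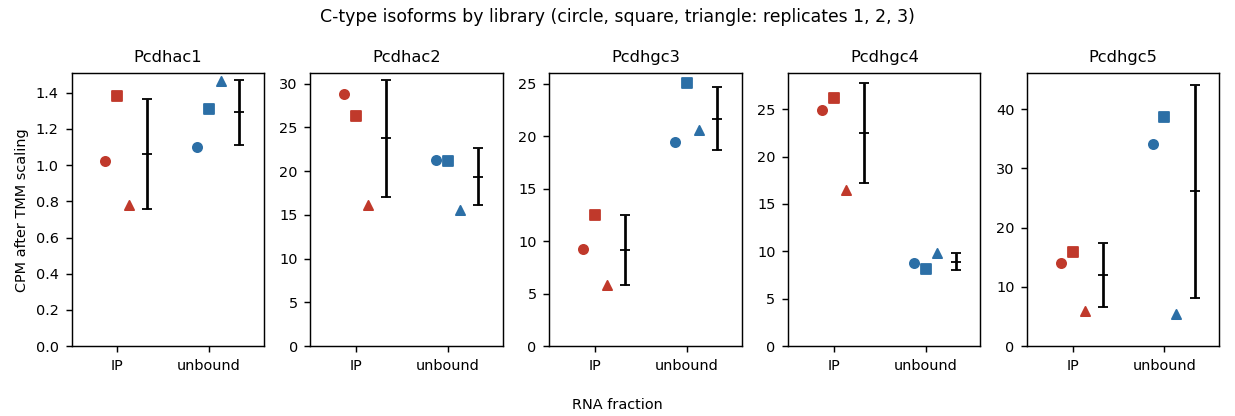
CPM after TMM scaling of the 5 C-type members in IP (red) and unbound (blue) libraries, each panel with its own axis from 0. Circles, squares and triangles are replicates 1, 2 and 3, and black bars give the mean ± SD (n = 3). Pcdhgc4 is higher in each IP library (16.4 to 26.2 CPM) than in any unbound library (8.11 to 9.88 CPM), Pcdhgc3 is lower, and unbound replicate 3 is the low point for Pcdhgc5.

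Among the alpha array's C-type members, Pcdhac2, which is needed for the even spread of serotonergic axons, stood at 28.8, 26.3 and 16.1 CPM in IP and at 21.3, 21.2 and 15.6 CPM in unbound libraries. The groups overlapped through IP replicate 3. Its log2 difference of 0.29 had a 95% interval of -0.25 to 0.83 and did not pass (adjusted p = 0.343, edgeR quasi-likelihood test), and it turned to -0.25 under scaling on pan-neuronal markers. Pcdhac1 was much lower, at 1.02, 1.38 and 0.78 CPM in IP and 1.10, 1.31 and 1.46 CPM in unbound libraries, with a log2 difference of -0.29 ± 0.42. Its groups overlapped as well.

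Compared per kilobase of own exon (of RefSeq span for beta members), 4 of the 5 C-type members were among the 5 highest members in both groups. In IP RNA the order of levels was Pcdhac2 (7.84 ± 2.21 CPM per kb), Pcdhgc4 (7.75 ± 1.82), Pcdhgc5 (4.58 ± 2.03), the beta member Pcdhb17 (3.83 ± 0.55) and Pcdhgc3 (3.57 ± 1.30). Neighbours in this order did not differ beyond their SD, except that Pcdhgc4 and Pcdhgc5 lay further apart than either SD. In unbound RNA the order was Pcdhgc5 (9.96 ± 6.87), Pcdhgc3 (8.43 ± 1.15), Pcdhac2 (6.39 ± 1.08), Pcdhb16 (3.18 ± 0.82) and Pcdhgc4 (3.07 ± 0.31), where Pcdhgc5 and Pcdhgc3, and Pcdhb16 and Pcdhgc4, lay within their SD of each other. Pcdhgc4 thus stood at rank 2 in IP and rank 5 in unbound RNA, and Pcdhgc3 at rank 5 and rank 2. The RefSeq span of Pcdhb17 is 3270 bases, against 4660 bases in its GENCODE model. Its place above Pcdhgc3 in IP RNA, and so rank 5 of Pcdhgc3 there, depends on that choice of length. Pcdhac1, at 0.41 and 0.50 CPM per kb, was at ranks 50 and 47 of the 54 members with any reads.

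Shares of an array's counts do not depend on library scaling. Pcdhgc4 took 17.9%, 15.9% and 19.0% of gamma-array counts in the IP libraries and 5.46%, 4.75% and 10.6% in the unbound libraries. Pcdhgc3 took 6.61%, 7.59% and 6.69% against 12.05%, 14.7% and 22.0%. Neither pair of groups overlapped. Pcdhgc5 took 10.1%, 9.73% and 6.87% against 21.2%, 22.6% and 5.84%, the last of these being unbound replicate 3. The 3 shares add up with those of the other gamma members to 100%, so a higher share of one lowers the rest. The ratio of Pcdhgc4 to Pcdhgc3 counts was 2.71, 2.10 and 2.84 in IP and 0.45, 0.32 and 0.48 in unbound libraries, so that Pcdhgc4 exceeded Pcdhgc3 in each IP library and in no unbound library. All 5 C-type members together held 22.6% to 27.98% of the members' counts in IP and 26.3% to 28.6% in unbound libraries, and these ranges overlapped.

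**Figure D3:**
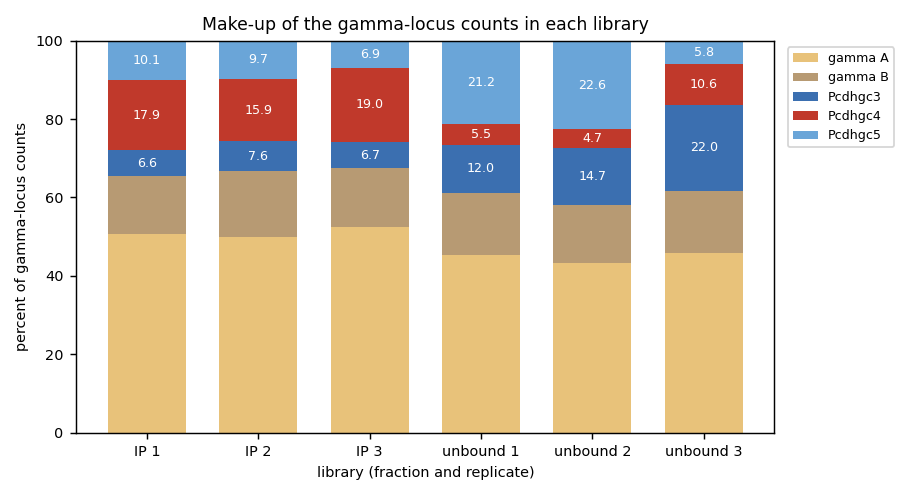
Percent of gamma-array counts held by gamma A, gamma B and the 3 C-type gamma members in each library (stacked bars, labelled with the C-type percentages). Pcdhgc4 holds 15.9% to 19.0% in IP and 4.75% to 10.6% in unbound libraries, Pcdhgc3 6.61% to 7.59% and 12.05% to 22.0%. Pcdhgc5 is at 5.84% in unbound replicate 3 and above 21% in the other two.

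Alpha members, whose proteins need other isoforms to reach the cell surface, were the lowest subfamily. The median of the 9 alpha members with reads was 0.54 CPM per kb in IP and 0.43 in unbound RNA. Their counts ran from 2 to 116 reads per library, and 0 of the 9 was called in either direction, with SEs of 0.37 to 0.79 on the log2 scale. The highest, Pcdha5, was at 2.19, 2.67 and 1.67 CPM in IP and at 2.46, 3.37 and 1.70 CPM in unbound libraries, and the lowest tested, Pcdha8, at 0.93, 0.06 and 0.33 against 0.60, 0.46 and 1.03 CPM. Both overlapped between groups. Pcdha9, chosen after its values were seen, was at 1.88, 3.50 and 1.31 CPM in IP and at 1.002, 0.96 and 1.25 CPM in unbound libraries. Its groups did not overlap, but the log2 difference of 1.05 ± 0.45 did not pass (adjusted p = 0.0857, edgeR quasi-likelihood test), although it did without IP replicate 3 (1.35, adjusted p = 0.0366 in the same test).

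Pcdha4, Pcdha6 and Pcdha7 had 0 reads in each of the 6 libraries. They are the only members with a GENCODE gene not named Pcdh on the same strand of the own exon. These are Gm42416 over 96.3% of Pcdha4, Gm37013 over 8.9% of Pcdha6 and Gm37388 over 13.6% of Pcdha7. Of the 3 only Gm37013 is a feature of the files, also with 0 reads. Overlaps with other genes named Pcdh were not searched. The files also hold Pcdha6-g, with 0 reads in every library, and Pcdha7-g, with 1 to 5 reads per library. The part of these overlaps and features in the zeros was not tested, and the zeros alone do not show that the isoforms were not transcribed. For 13 members a gene model on the opposite strand covers part of the own exon, among them Pcdha11 (97.8%), Pcdhga11 (52.4%) and Pcdhb12 (63.5%).

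The beta members, which have a short cytoplasmic tail without the constant region of the other arrays, were intermediate. Their median was 1.24 CPM per kb of RefSeq span in IP and 1.16 in unbound RNA. Of 20 tested, 0 was called, with 13 positive and 7 negative differences. Pcdhb1 did not pass the filter, with 5, 5 and 16 reads in IP and 19, 3 and 3 in unbound libraries. Pcdhb16, the highest by mean CPM, stood at 6.89, 14.8 and 9.24 CPM in IP and at 17.2, 20.8 and 12.2 CPM in unbound libraries, and the groups overlapped. Its log2 difference was -0.70 ± 0.31 (adjusted p = 0.0931, edgeR quasi-likelihood test), and it passed in the fit with the replicate block (-0.73, adjusted p = 0.0366 in that test). Its share of beta counts was 7.16%, 11.5% and 10.5% in IP and 15.5%, 16.9% and 15.4% in unbound libraries, without overlap.

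Pcdhb2, named after its values were seen, was at 4.61, 6.01 and 3.64 CPM in IP and at 2.98, 2.88 and 1.29 CPM in unbound libraries, without overlap. Its log2 difference of 0.99 ± 0.37 did not pass (adjusted p = 0.0575, edgeR quasi-likelihood test), but it passed with the replicate block (1.05, adjusted p = 0.0262 in that test) and also with DESeq2 and limma-voom. The lowest tested beta member by mean CPM, Pcdhb6, was at 2.07, 2.22 and 1.87 CPM in IP and at 1.45, 2.005 and 1.17 CPM in unbound libraries. Its groups overlapped only by IP replicate 3 against unbound replicate 2. IP exceeded unbound RNA in every library for 4 tested members (Pcdha9, Pcdhb2, Pcdhb8 and Pcdhgc4) and lay below it for 1 (Pcdhgc3) of the 53, where 27.1% and 28.7% of all tested genes did so.

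**Figure D4:**
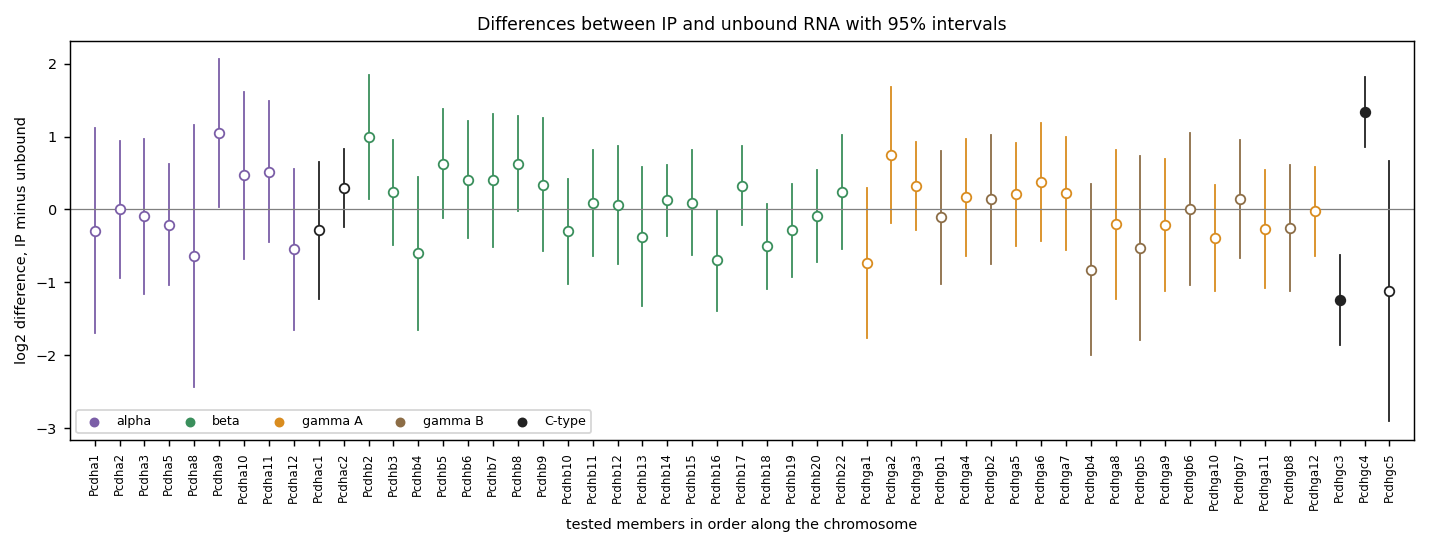
Log2 difference (IP minus unbound) of each of the 53 tested members with its 95% interval, in order along the chromosome and coloured by subfamily. Filled points passed at an adjusted p under 0.05: Pcdhgc4 at 1.33 and Pcdhgc3 at -1.24. The open points spread on both sides of 0, and scaling on pan-neuronal markers moves the median of all points to -0.54, leaving 6 positive.

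Gamma A members, which together with gamma B make up most of the gamma array, had a median of 1.90 CPM per kb in IP and 1.99 in unbound RNA, the highest of the subfamilies under stochastic choice. Pcdhga5 and Pcdhga12 shared the highest mean CPM over the 6 libraries. Pcdhga5 stood at 7.82, 10.2 and 6.11 CPM in IP and at 9.65, 6.80 and 4.44 CPM in unbound libraries, and Pcdhga12 at 6.82, 10.3 and 5.20 against 7.27, 8.43 and 7.001 CPM. Pcdhga1, the lowest, was at 1.59, 3.02 and 1.58 CPM against 3.56, 5.03 and 1.73 CPM, a log2 difference of -0.74 ± 0.45. The groups of all 3 overlapped and 0 of 12 gamma A members was called. Pcdhga2, chosen after its values were seen, was at 9.15, 8.0 and 3.22 CPM in IP and 4.76, 4.77 and 2.57 CPM in unbound libraries. Its replicate 3 was the low library in both groups, and its log2 difference of 0.75 ± 0.41 was not called, but without IP replicate 3 it was 1.11 (adjusted p = 0.0321, edgeR quasi-likelihood test).

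Gamma B members had a median of 1.39 CPM per kb in IP and 1.26 in unbound RNA, and 0 of 7 was called. Pcdhgb1, the highest by CPM, was at 4.42, 6.01 and 2.89 CPM in IP and at 6.11, 5.81 and 2.40 CPM in unbound libraries. Pcdhgb4, the lowest, was at 1.33, 1.70 and 0.42 CPM against 2.48, 1.69 and 1.92 CPM. Its log2 difference of -0.83 ± 0.52 was the lowest of the 48 tested members outside the C-type group, and its groups overlapped.

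Summed over all members, the level was 279, 335 and 199.6 CPM in IP replicates 1 to 3 and 305, 330.0 and 201 CPM in unbound replicates 1 to 3. The group ranges largely coincided, and replicate 3 of each group was the low one. It was low for most members singly too. IP replicate 3 was the lowest IP library for 44 of the 53 tested members and unbound replicate 3 the lowest unbound library for 39, with 33 lowest in both. Among all tested genes these shares were 35.4%, 32.0% and 15.2%. The pan-neuronal marker sum was not low there, at 23269 CPM in IP replicate 3 (22338 and 23929 in the other two) and 16502 CPM in unbound replicate 3 (15239 and 16574). Snap25 made up much of that sum (12781 CPM in IP replicate 3 and 8941 in unbound replicate 3), and single pan-neuronal markers went both ways. Syt1 was lowest in replicate 3 of both groups (638 CPM against 1076 and 1232 in IP, 504 against 1084 and 1303 in unbound RNA). Nefm was highest there (192 against 134 and 155 in IP, 260 against 104 and 126 in unbound RNA). The choroid plexus sum (128 CPM in IP replicate 3 against 257 and 431) and the striatal and cortical sum (100.6 against 191 and 238) were lowest in replicate 3 of IP as of unbound RNA. Of the choroid plexus list, Clic6 (5.87 CPM in IP replicate 3 against 4.94 and 6.27) and Kcne2 (0.69 against 0.21 and 0.42) were not lowest in IP replicate 3, while the rest were. The part of these markers in the members' low levels was not tested.

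**Figure D5:**
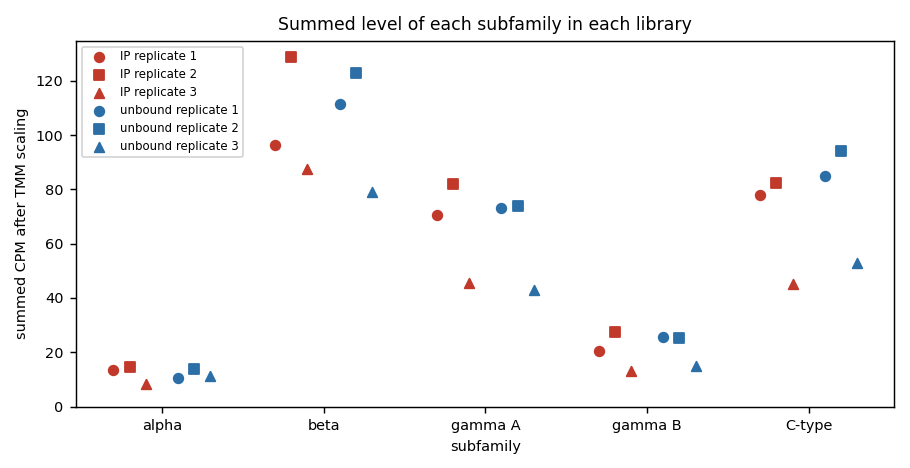
Summed CPM after TMM scaling of each subfamily in each library (red IP, blue unbound; circle, square and triangle for replicates 1, 2 and 3). For beta, gamma A and gamma B members and for the C-type group replicate 3 is the lowest library of each group, as in the beta sums of 87.7 and 79.2 CPM. IP and unbound points overlap in every subfamily.

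By subfamily, the sums in IP and unbound RNA were 12.2 ± 3.36 and 11.8 ± 1.74 CPM for alpha, 104.2 ± 21.7 and 104.5 ± 22.7 CPM for beta, 66.0 ± 18.7 and 63.3 ± 17.6 CPM for gamma A, 20.4 ± 7.26 and 21.8 ± 6.12 CPM for gamma B and 68.5 ± 20.4 and 77.3 ± 21.6 CPM for C-type members (mean ± SD, n = 3). Each difference was smaller than the spread between replicates. Scaled on pan-neuronal markers, which lowers the median log2 difference of all genes by 0.54, each of these sums was lower in IP RNA, by 0.48 to 0.72 on the log2 scale. Across the 48 tested members outside the C-type group, Pearson's r of log2(CPM + 0.1) was 0.85 to 0.88 between IP libraries, 0.82 to 0.93 between unbound libraries and 0.76 to 0.88 between the groups, as a description of members that share each library's depth.

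Members varied between replicates about as much as other genes of their level. The median biological coefficient of variation was 0.33 for the 44 members at 1 to 10 CPM and 0.31 for all genes in that range, against 0.22 for all tested genes. The SE of a member's log2 difference had a median of 0.36 and reached 0.79, so a missed call does not show that a member was equal between groups.

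Of the genes that set promoter choice and silence unused promoters, 1 of 23 rose and 10 fell, beside 21.1% and 23.2% of all genes, with a median log2 difference of -0.30. The counts were 0 and 16 with pan-neuronal scaling, 0 and 5 with the lane 2 libraries alone, and 3 and 10 with the replicate block. Over all genes, these fits called 793 and 7287 of 16991, 1297 and 2538 of 17320, and 3952 and 4017 of 16991. Tet2 and Tet1, which oxidise methylated DNA, fell, from 130.3 to 58.9 CPM (-1.15 ± 0.12, adjusted p = 3.1e-04) and from 97.2 to 36.5 CPM (-1.41 ± 0.18, adjusted p = 6.3e-04), both by edgeR's quasi-likelihood test. Atf7ip, a partner of the histone methyltransferase SETDB1, fell by 0.96 on the log2 scale. Trim28, a corepressor, rose by 0.53, but was at -0.02 with pan-neuronal scaling. It was at 0.32 with the GC trend removed (adjusted p = 0.136, edgeR quasi-likelihood test), and it also missed the threshold with the lane 2 libraries alone and without IP replicate 2, IP replicate 3 or unbound replicate 1 (adjusted p from 0.0512 to 0.0976 in that test). Ctcf, the insulator protein bound at the isoform promoters, was at 124, 157 and 130.4 CPM in IP and at 104.5, 117 and 98.9 CPM in unbound libraries. The groups did not overlap, but its difference of 0.36 did not pass (adjusted p = 0.0678, edgeR quasi-likelihood test), though it did with the replicate block (adjusted p = 0.0289), and it was -0.18 with pan-neuronal scaling. The cohesin subunit Rad21 was at 0.17 ± 0.15 and Smchd1, which silences the arrays, at -0.30 ± 0.17, neither passing.

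Of 29 binding partners and downstream genes, 4 rose and 3 fell, beside 21.1% and 23.2% of all genes. With pan-neuronal scaling 0 rose and 12 fell, beside 793 and 7287 of all 16991 genes. Without replicate 3 of both groups 7 rose and 7 fell, beside 4429 and 4649 of 17015 genes. Wasf3 of the actin-regulating WAVE family rose by 0.81, the postsynaptic adhesion protein Nlgn2 by 0.79, the gamma-secretase subunit Psenen by 0.76 and Cdc42 by 0.38 on the log2 scale, the last at -0.16 and the other three not passing with pan-neuronal scaling. Focal adhesion kinase Ptk2 fell by 1.09, Wasf2 by 1.44 and Cyfip1 of the WAVE complex by 1.28. Axin1, the partner of Pcdhgc3, was at -0.19 ± 0.16 and did not pass.

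The non-clustered protocadherins, single genes outside the arrays, gave 3 rises and 0 falls among 10 tested of 11 (edgeR quasi-likelihood test), beside 21.1% and 23.2% of all genes, with a median log2 difference of 0.60 beside 0.01 for the clustered members. The rises numbered 6 with the replicate block, 6 without IP replicate 3 and 7 without replicate 3 of both groups. Over all genes, these fits called 3952 of 16991, 3507 of 17554 and 4429 of 17015 higher. Pcdh19, an adhesion protein linked to epilepsy, stood at 153, 168 and 136 CPM in IP and at 60.7, 56.0 and 49.9 CPM in unbound libraries, a log2 difference of 1.46 ± 0.14. Pcdh18 differed by 1.21 ± 0.21 and Pcdh17 by 0.93 ± 0.17. Each of the 3 was higher in every IP library than in any unbound library. With pan-neuronal scaling Pcdh19 and Pcdh18 remained higher, at 0.91 and 0.67, Pcdh17 did not pass, and Pcdh9 fell by 0.66.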

How the data were processed

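The authors deposited raw read counts per gene for each of 6 libraries. The submitters' processing notes name the mm10 genome, STAR 2.0.0e and HTSeq. Which annotation, strand setting and overlap mode were used is not given in those notes. Entries that name no gene, 52.3% to 55.0% of the reads listed per library, stayed out of library sizes and tests. Ambiguous reads among them were 1.58% to 1.64% of the reads in IP and 7.08% to 9.02% in unbound libraries. Reads not uniquely aligned were 43.8% to 45.0% in IP and 31.8% to 32.9% in unbound libraries.

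Differences were tested over all genes by edgeR's quasi-likelihood test (edgeR 4.0.16, R 4.3.3) with TMM scaling, filterByExpr (minimum count 10, total 15), robust fits with group as the only term, and p-values adjusted by Benjamini-Hochberg over 16991 genes at 0.05. SE was taken as the size of the log2 difference over the root of the F statistic. The test was checked on simulated data. Members and gene lists were chosen with earlier results of these data known. Named genes are the C-type members, in each other subfamily the highest and lowest tested member by mean CPM and any called ones, members that were filtered out, Ctcf, Rad21 and Smchd1, and up to 3 rises and 3 falls of each list by adjusted p. Others named, such as Pcdhb8, Cdc42, Axin1 and Pcdh9, were chosen after their values were seen. Levels between members are per kilobase of own exon (RefSeq span for beta members). Positions come from GENCODE M21.

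Replicates differed by more than counting noise (chi-square per degree of freedom over members 5.07 to 20.6), so none was counted as a copy. IP and unbound libraries of one number deviated together from their group means (correlations over genes of 0.14, 0.16 and 0.21). Between libraries of unequal numbers the correlations were -0.17 to 0.04. The numbers were taken as pairs in the fit with the replicate block, while the main fit did not use them. This pairing rests on that check and on no label. Replicate 2 was run on lane 4 and the rest on lane 2, so what its IP and unbound libraries share cannot be told apart from lane. Alternatives were other scalings and filters, DESeq2 1.42.0, limma-voom (limma 3.58.1), the replicate block, lane, and left-out libraries. Removal of a GC trend and leaving out replicate 3 of both groups were added after seeing the data.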

Additional observations from a re-analysis of the deposited data

How the results depend on the processing

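Pcdhgc4 and Pcdhgc3 kept direction and call in all 18 alternative fits, with adjusted p (edgeR quasi-likelihood test unless named) from 2.7e-07 (DESeq2) to 0.0356 and from 4.4e-05 (DESeq2) to 0.0296. The count of members called higher, 1, became 2 with DESeq2, limma-voom and the replicate block, and that called lower, 1, became 2 with the replicate block or the lane covariate and 6 with pan-neuronal scaling (Pcdhb16, Pcdhb18, Pcdhb19, Pcdhga1, Pcdhga10 and Pcdhgc3). Leaving out libraries gave 1 to 4 higher and 1 to 4 lower. The highest counts came without replicate 3 of both groups (4 higher: Pcdha9, Pcdhb2, Pcdhga2 and Pcdhgc4; 3 lower: Pcdhb16, Pcdhgc3 and Pcdhgc5) and without unbound replicate 3 (4 lower: Pcdhb16, Pcdhga1, Pcdhgc3 and Pcdhgc5). Without IP replicate 3 there were 3 higher, and without IP replicate 2 there were 3 lower (Pcdhb16, Pcdhb18 and Pcdhgc3). The paired fit with the replicate block changed no other member's call than those of Pcdhb2 and Pcdhb16. All-gene calls, higher and lower, were 3625 and 4793 of 20000 with DESeq2 and 3643 and 4008 of 16991 with limma-voom. They were 3329 and 3748 of 16991 with the lane covariate. Without replicate 3 of both groups they were 4429 and 4649 of 17015, and without unbound replicate 3, 4139 and 4448 of 17256. Without IP replicate 3 they were 3507 and 3605 of 17554, and without IP replicate 2, 2748 and 3542 of 17688.

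Over all genes, 3586 higher and 3943 lower calls (47.6% higher) became 793 and 7287 (9.81%) with pan-neuronal scaling and 1297 and 2538 (33.8%) with the lane 2 libraries alone, a fit on 4 libraries. Pan-neuronal scaling moved the log2 difference of summed levels from -0.04 to -0.58 for all members, from 0.01 to -0.53 for alpha, from 0.00 to -0.54 for beta, from 0.06 to -0.48 for gamma A, from -0.12 to -0.66 for gamma B and from -0.18 to -0.72 for C-type members, and turned Trim28 from 0.53 to -0.018. It sets neuronal markers equal between groups by construction.

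With 3 libraries a group and SEs of 0.21 to 0.79 on the log2 scale, small differences can be missed. Reads of shared exons limit single alpha, gamma and C-type members, near-identical stretches members of every subfamily but the C-type, and antisense genes 13 members, Pcdhgc3 among them.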

Other observations

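Pcdh1, a non-clustered protocadherin chosen after its values were seen, was also low in replicate 3 of both groups, at 88.0, 119.7 and 48.4 CPM in IP and at 95.9, 118.3 and 44.6 CPM in unbound replicates 1 to 3. Its log2 difference was -0.02 ± 0.43. Pcdh8 was at 25.8, 25.1 and 9.95 CPM in IP and at 16.5, 11.9 and 6.93 CPM in unbound replicates 1 to 3, again lowest in replicate 3 of each group. Pcdh9 was highest in unbound replicate 3, at 215 CPM against 183 and 191 CPM in the other two.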
